A study of Mus musculus with 6 samples.

Results

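The genes described here encode the nuclear-encoded subunits of the 5 complexes of oxidative phosphorylation, measured in mouse CD8 T cells of the OT-I line, labelled CD73 KO or WT. They were the protein-coding genes of the deposited table whose symbols begin with Nduf (other than the Ndufaf assembly factors), Sdha to Sdhd, Uqcr, Cyc1, Cox4 to Cox8 or Atp5 and whose counts over the 6 libraries summed to 10 or more. Of 49671 genes in the table, 97 had these symbols, 86 of those were protein-coding, and 80 had enough counts: 37 of complex I, 4 of complex II, 9 of complex III, 13 of complex IV and 17 of complex V. The threshold fell in a wide gap. The member with the fewest reads was Cox7a1, with 19, 10 and 11 counts in CD73 KO and 17, 3 and 10 in WT, and of the genes left out the one with the most was Cox6a2, with 1, 1 and 0 counts in CD73 KO and 0, 0 and 2 in WT. The complex was read from the symbol, which misplaces a few genes. Ndufa4 is usually placed in complex IV, Cox7a2l is a factor that joins complexes III and IV into supercomplexes, and Atp5s is not a structural subunit of the enzyme.

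Oxidative phosphorylation passes electrons from NADH through complex I, or from succinate through complex II, to ubiquinone, then through complex III and cytochrome c to complex IV, where oxygen is reduced. Complexes I, III and IV pump protons across the inner mitochondrial membrane, and complex V, the ATP synthase, uses their return to make ATP. Complex II also works as an enzyme of the tricarboxylic acid (TCA) cycle and is the only complex without a subunit encoded in mitochondrial DNA. Activated T cells raise both glycolysis and respiration, and loss of mitochondrial function is a known feature of T cells driven into exhaustion.

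Both groups were CD8 T cells from the spleen of OT-I mice, which carry a transgenic receptor for SIINFEKL, a peptide of ovalbumin, and both went through the same culture: daily peptide (10 ng/mL) over 5 days in medium that held 5 ng/mL each of the cytokines IL-7 and IL-15, a protocol meant to bring on exhaustion, followed by a sort for live cells. As labelled, the groups differed in genotype, WT or CD73 KO, with 3 libraries each. CD73, the product of Nt5e, is the surface enzyme that makes adenosine from AMP. How the knockout was made, the strain and the age of the mice, and whether libraries of 1 group came from separate animals or cultures are not stated in the labels, so the p-values reflect only how these libraries vary, and that variation may be technical. Libraries held 6934150 to 19382950 counts, and a detection floor of 3 counts corresponds to 0.160 to 0.427 CPM (counts scaled with TMM factors to the counts in tested genes). Nt5e had 69, 128 and 88 counts in CD73 KO and 290, 49 and 263 in WT, with a log2 fold change of -1.67 ± 0.72 (SE) that was not called by edgeR (adjusted p = 0.534). In the library labelled WT replicate 2 it stood at 5.22 CPM, within the range of the CD73 KO libraries (3.67 to 8.47 CPM). The Nt5e level of this library thus goes against its label. CD73 KO libraries also kept Nt5e reads above the floor, so Nt5e RNA alone does not settle the genotype, and labels were used as given. Cd8a stood at 702 to 1118 CPM and Cd4 at 0 to 5 counts. All 13 genes of mitochondrial DNA were listed at 0 in every library, so the mitochondrially encoded subunits of complexes I, III, IV and V could not be set beside the nuclear ones.

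Promoter windows of 4 subunit genes are printed here because these genes mark the range of the results that follow. Uqcr11 had the lowest fold change of the 80, Ndufa6 the highest, Sdhd the smallest p, and Sdhb was the gene of complex II whose groups overlapped. Each window runs from 250 bases before to 50 bases after the start of the gene in RefSeq (build GRCm38.p6), 5′ to 3′ on the strand of the gene. Uqcr11 lies at chr10:80406772-80407071 (minus strand), Ndufa6 at chr15:82354242-82354541 (minus strand), Sdhd at chr9:50603800-50604099 (minus strand) and Sdhb at chr4:140961021-140961320 (plus strand). Capitals mark matches, on either strand, to 3 motifs of factors known to drive respiratory genes: GCGCATGC for NRF1, CCGGAAGT for GABPA and other ETS factors, and AAGATGGCG for YY1.
Uqcr11: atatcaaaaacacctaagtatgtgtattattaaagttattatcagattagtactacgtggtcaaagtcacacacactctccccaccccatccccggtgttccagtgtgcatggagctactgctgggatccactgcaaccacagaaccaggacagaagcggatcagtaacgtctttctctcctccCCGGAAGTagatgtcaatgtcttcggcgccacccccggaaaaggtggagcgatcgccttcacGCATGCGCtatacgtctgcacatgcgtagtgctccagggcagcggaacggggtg
Ndufa6: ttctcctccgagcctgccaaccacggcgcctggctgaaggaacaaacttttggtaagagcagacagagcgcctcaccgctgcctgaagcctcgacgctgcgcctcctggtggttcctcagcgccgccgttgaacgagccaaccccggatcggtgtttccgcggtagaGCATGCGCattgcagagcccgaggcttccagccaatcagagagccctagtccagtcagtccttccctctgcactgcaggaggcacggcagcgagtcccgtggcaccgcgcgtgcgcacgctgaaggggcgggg
Sdhd: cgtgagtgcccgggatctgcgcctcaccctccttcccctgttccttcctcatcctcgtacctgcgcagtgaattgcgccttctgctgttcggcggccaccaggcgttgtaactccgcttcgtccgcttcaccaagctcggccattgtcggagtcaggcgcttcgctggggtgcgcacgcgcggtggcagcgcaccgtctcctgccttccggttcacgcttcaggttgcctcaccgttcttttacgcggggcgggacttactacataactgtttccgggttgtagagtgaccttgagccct
Sdhb: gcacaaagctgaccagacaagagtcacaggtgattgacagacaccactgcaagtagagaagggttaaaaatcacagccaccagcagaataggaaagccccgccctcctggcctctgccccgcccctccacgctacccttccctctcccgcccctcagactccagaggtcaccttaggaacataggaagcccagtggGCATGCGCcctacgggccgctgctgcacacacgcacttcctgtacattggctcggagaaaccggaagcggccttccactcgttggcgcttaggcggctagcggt
Uqcr11 had 1 ETS and 1 NRF1 match, Ndufa6 and Sdhb had 1 NRF1 match each, and the Sdhd window had none. The Sdhd window overlapped 190 bases of Timm8b, which runs the opposite way, including 130 bases of its exons.

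Windows were found for 65 of the 80 genes. The NRF1 motif was in 10 of them (15.4%) against 2.71% of all 32851 windows of the same length in the table, the YY1 motif in 6 (9.23%) against 1.40%, and the ETS motif in 5 (7.69%) against 3.89%. At least 1 motif was in 20 windows (30.8%, against 7.57% of all windows): 9 of 33 in complex I, 1 of 3 in complex II, 3 of 5 in complex III, 2 of 11 in complex IV and 5 of 13 in complex V. The YY1 motif was in 5 windows of complex I and 1 of complex V. Each of the 65 genes had 1 window, whereas the 32851 windows were not limited to 1 per gene, to protein-coding genes or to genes tested. The shares are therefore of unlike sets. These counts describe the letters in the windows and carry no test.

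Between genotypes, subunit genes of all 5 complexes leaned toward lower levels in CD73 KO by small amounts. Of the 80 genes, 69 had a fold change below 0 and 11 above, against 47.7% of the 12242 genes tested that lay below 0. The median log2 fold change was -0.12, a change of -8.20%, against 0.01 over all genes tested. No subunit gene passed the adjusted threshold of 0.05 in edgeR's quasi-likelihood test, which 0.0572% of all genes tested did. The smallest adjusted p was 0.405, that of Sdhd. DESeq2, which called 0.81% of its genes, also called none of the 80, and limma-voom called none.

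At an unadjusted p under 0.05, 6 genes were lower in CD73 KO (Sdhd, Atp5b, Cox5a, Sdhc, Atp5a1 and Ndufb8) and 0 were higher, where 3.89% of all genes tested were lower at that level. Of the 12242 genes tested, 704 were higher at that level. All 3 CD73 KO libraries lay below all 3 WT libraries for 17 of the 80 genes, against 7.6% of all genes tested. All 3 lay above for 1 gene, Ndufa6, against 7.59% of all genes tested. All 80 passed the filter on low counts. The 95% interval of the change lay within 1.5-fold either way for 75 genes and within 2-fold for 79, the exception being Cox7a1. The median standard error was 0.12 on the log2 scale, against 0.16 over all genes tested. In bulk RNA, fewer cells with a high level and less RNA per cell cannot be told apart.

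**Figure D1:**
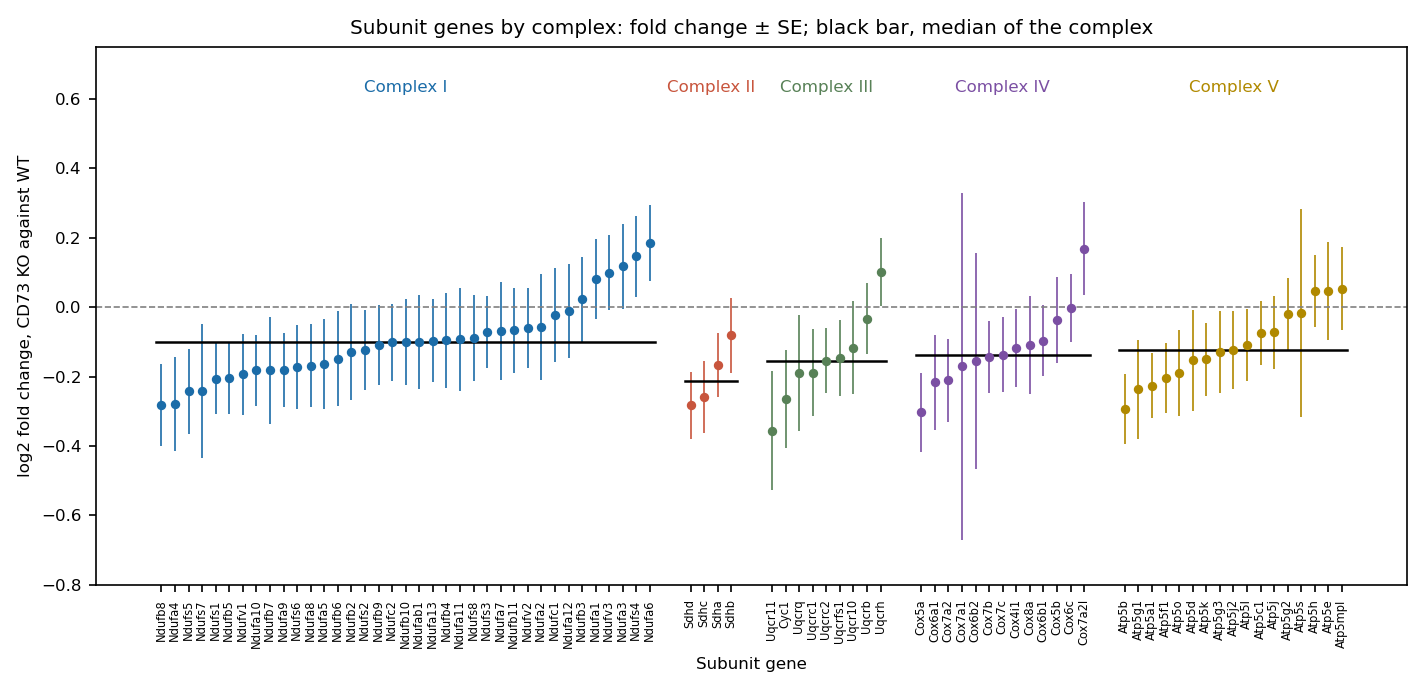
Log2 fold change, CD73 KO against WT, of each of the 80 subunit genes (points) with its standard error (lines), grouped by complex; black bars are the medians of the complexes. Medians lie between -0.21 in complex II and -0.10 in complex I, and single genes between -0.36 (Uqcr11) and 0.18 (Ndufa6).

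The complexes differed little in their medians. The median log2 fold change was -0.21 in complex II (-13.7%), -0.15 in complex III (-10.1%), -0.14 in complex IV (-9.02%), -0.12 in complex V (-8.22%) and -0.10 in complex I (-6.76%). Below 0 lay 4 of 4 genes of complex II, 8 of 9 of complex III, 12 of 13 of complex IV, 14 of 17 of complex V and 31 of 37 of complex I. Groups did not overlap, with CD73 KO lower, for 3 genes of complex II, 2 of complex III, 1 of complex IV, 5 of complex V and 6 of complex I. Over all genes tested the share was 7.6%. Placing Ndufa4 in complex IV left the medians at -0.14 for complex IV and -0.10 for complex I. The medians of the complexes were compared as values, with no test of their differences.

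The summed levels show how single libraries lay. The 4 genes of complex II summed to 693, 705 and 723 CPM in CD73 KO and to 798, 821 and 796 CPM in WT, or 707 ± 15.1 against 805 ± 14.2 CPM (SD, n = 3), and the groups did not overlap. Complex V summed to 4648, 4585 and 5286 CPM in CD73 KO and to 5433, 5585 and 5503 CPM in WT, again without overlap, though CD73 KO replicate 3 came close to WT. Atp5b and Atp5a1, its genes of highest CPM, weigh most in that sum, which does not stand for the whole complex. By gene, the median of log2 CPM (plus 0.1) minus the mean over libraries was 0.12 in CD73 KO replicate 3. In WT it was 0.04, 0.08 and 0.08. In the sums of complexes I, III and IV replicate 3 of CD73 KO lay within or above the WT range. Complex I summed to 2695, 2528 and 3062 CPM in CD73 KO and to 2940, 3024 and 2989 CPM in WT. Complex III summed to 1151, 1119 and 1338 CPM in CD73 KO and to 1295, 1325 and 1336 CPM in WT, and complex IV to 1888, 1709 and 2074 CPM in CD73 KO and to 1981, 2095 and 2021 CPM in WT. All 80 genes together took 1.14 ± 0.111% of the counts in CD73 KO and 1.26 ± 0.0280% in WT (SD, n = 3).

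Complex II links the TCA cycle to the respiratory chain. Its soluble part is the flavoprotein Sdha, which oxidises succinate, and the iron-sulfur protein Sdhb, and it is held in the membrane by Sdhc and Sdhd. Sdhd (chromosome 9, 50596357 to 50603812, mm10 coordinates of GENCODE M21, as for all genes below) was at 170.1, 172 and 170.1 CPM in CD73 KO and at 195, 218 and 211 CPM in WT. Its groups did not overlap and its CD73 KO libraries were nearly equal. The log2 fold change of -0.28 ± 0.10 (SE) had the smallest p of the 80 genes (adjusted p = 0.405, edgeR). Sdhc, the other anchor (chromosome 1, 171127165 to 171150603), was at 80.3, 74.4 and 85.3 CPM in CD73 KO and at 92.8, 98.0 and 96.5 CPM in WT, a log2 fold change of -0.26 ± 0.10 (adjusted p = 0.487). Sdha (chromosome 13, 74322254 to 74350280) was at 297, 318 and 299 CPM in CD73 KO and at 344, 346 and 335 CPM in WT, a log2 fold change of -0.17 ± 0.09 (adjusted p = 0.590). Neither Sdhc nor Sdha overlapped between groups. Sdhb (chromosome 4, 140961203 to 140979193) did, at 145, 139.9 and 168 CPM in CD73 KO and 166, 159.6 and 154 CPM in WT, with CD73 KO replicate 3 the highest of the 6 and a log2 fold change of -0.08 ± 0.11.

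**Figure D2:**
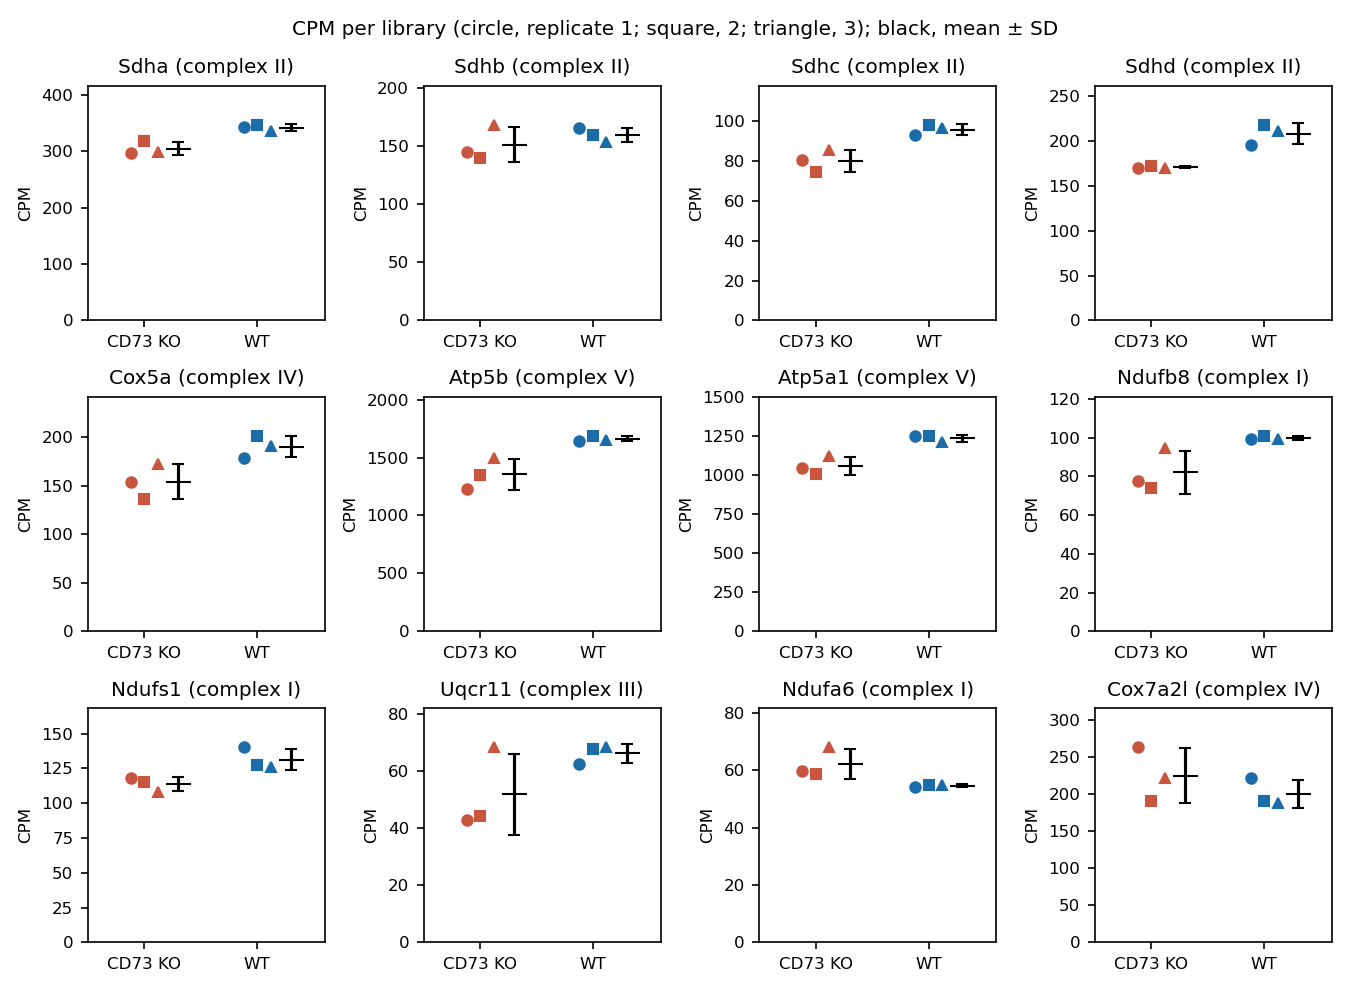
CPM of 12 subunit genes in each library, CD73 KO in red and WT in blue, with circles for replicate 1, squares for replicate 2 and triangles for replicate 3; black marks are the mean ± SD of 3 libraries and every axis starts at 0. CD73 KO lies below WT without overlap for Sdha, Sdhc, Sdhd, Cox5a, Atp5b, Atp5a1, Ndufb8 and Ndufs1, while the Uqcr11 triangle of CD73 KO (68.3 CPM) lies at the level of WT.

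In complex I, the 7 core subunits that carry the electron path in the matrix arm all had fold changes below 0 (median -0.12), as had 23 of 29 accessory subunits (median -0.10). Ndufb8, an accessory subunit of the membrane arm (chromosome 19, 44548572 to 44555440), was at 77.7, 73.9 and 94.8 CPM in CD73 KO and at 99.2, 101 and 99.2 CPM in WT. The groups did not overlap, and the log2 fold change was -0.28 ± 0.12 (adjusted p = 0.502). Ndufs1, the large iron-sulfur core subunit (chromosome 1, 63143596 to 63176833), was at 118, 116 and 108 CPM in CD73 KO and at 140.3, 128 and 126 CPM in WT (log2 fold change -0.21 ± 0.10, adjusted p = 0.547). It was the one core subunit without overlap, and CD73 KO replicate 3 was its lowest library. Ndufb5, another membrane arm subunit (chromosome 3, 32736990 to 32751566), was at 82.2, 79.1 and 90.6 CPM in CD73 KO and at 93.6, 99.9 and 96.7 CPM in WT, also without overlap (log2 fold change -0.20 ± 0.10).

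Of complex I genes, 6 had fold changes above 0, all accessory subunits. Ndufa6, a subunit of the matrix arm (chromosome 15, 82350140 to 82354322), was at 59.6, 58.8 and 68.2 CPM in CD73 KO and at 54.1, 55.0 and 55.0 CPM in WT, a log2 fold change of 0.18 ± 0.11 (adjusted p = 0.611). The groups did not overlap, and its WT libraries were nearly equal. Ndufs4, a matrix arm subunit whose loss causes Leigh-like disease in mice (chromosome 13, 114287795 to 114388258), was at 54.5, 50.2 and 52.4 CPM in CD73 KO and at 42.1, 49.6 and 50.4 CPM in WT, with overlap (log2 fold change 0.15 ± 0.12). Ndufa3 had a log2 fold change of 0.12 ± 0.12, also with overlap. Ndufa4 (chromosome 6, 11900292 to 11907497) was at 113, 109 and 146 CPM in CD73 KO and at 157, 158 and 131 CPM in WT. CD73 KO replicate 3 lay above WT replicate 3, and the log2 fold change was -0.28 ± 0.14 (adjusted p = 0.538).

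Complex III takes electrons from ubiquinol to cytochrome c. Uqcr11, its smallest subunit (chromosome 10, 80402997 to 80406830), was at 43.0, 44.2 and 68.3 CPM in CD73 KO and at 62.4, 67.6 and 68.3 CPM in WT. Replicates 1 and 2 of CD73 KO were well below every WT library and replicate 3 was level with them, so that the fold change of -0.36 ± 0.17, the lowest of the 80, carried a wide error (adjusted p = 0.535). Cyc1, which encodes cytochrome c1 (chromosome 15, 76343523 to 76346260), had the same arrangement, with 122, 130.5 and 177 CPM in CD73 KO and 173, 163 and 178 CPM in WT (log2 fold change -0.26 ± 0.14). The core protein Uqcrc2 (chromosome 7, 120635176 to 120659524) did not share it, at 241, 228 and 227 CPM in CD73 KO and 253, 261 and 263 CPM in WT, without overlap (log2 fold change -0.15 ± 0.09). The Rieske iron-sulfur protein Uqcrfs1 was also without overlap, at 137, 114 and 140.2 CPM in CD73 KO and 144, 148 and 142 CPM in WT (log2 fold change -0.15 ± 0.11). Uqcrh, the acidic hinge protein, was the member of complex III above 0, with a log2 fold change of 0.10 ± 0.10.

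In complex IV, Cox5a, a subunit on the matrix side of the enzyme (chromosome 9, 57521274 to 57532426), was at 154, 136 and 173 CPM in CD73 KO and at 179, 201 and 191 CPM in WT. It was the one gene of complex IV whose groups did not overlap, with a log2 fold change of -0.30 ± 0.11 (adjusted p = 0.462). Of its exonic bases, 12.8% lie opposite another gene, and with no strand setting stated for the counting, reads of the 2 strands cannot be told apart there. Cox6a1 (chromosome 5, 115345642 to 115348981) was at 149, 148 and 201 CPM in CD73 KO and at 197, 207 and 173 CPM in WT (log2 fold change -0.22 ± 0.14), and Cox7b had a log2 fold change of -0.14 ± 0.10. Both overlapped. Cox4i1, the isoform of subunit 4 found in most tissues, had a log2 fold change of -0.12 ± 0.11. Cox7a2l (chromosome 17, 83501918 to 83517330) was the one gene of complex IV above 0, at 263, 190.0 and 221 CPM in CD73 KO and 221, 191 and 187 CPM in WT (log2 fold change 0.17 ± 0.13). Its groups overlapped.

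Isoforms of the chain known from muscle, testis or other tissues were nearly absent. Of 8 such genes, Cox7b2, Cox8b, Cox8c and Ndufa4l2 had 0 counts in every library, Cox4i2 had at most 1 and Cox6a2 at most 2. Cox6b2, the testis isoform of subunit 6b, was at 1.76 to 2.44 CPM in CD73 KO and 1.87 to 2.85 CPM in WT. Cox7a1, the isoform of heart and muscle, was at 0.660 to 1.06 CPM in CD73 KO and 0.320 to 1.42 CPM in WT. Their log2 fold changes of -0.16 ± 0.31 and -0.17 ± 0.50 had the widest errors of complex IV.

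In complex V, the catalytic head of the enzyme (F1) had 4 of its 5 genes below 0, with a median log2 fold change of -0.15. Atp5b, the catalytic beta subunit (chromosome 10, 128083273 to 128090391), was at 1224, 1349.6 and 1493 CPM in CD73 KO and at 1646, 1685 and 1652 CPM in WT. The groups did not overlap, and the log2 fold change was -0.29 ± 0.10 (adjusted p = 0.409, edgeR). Atp5a1, the alpha subunit, was at 1045, 1009 and 1124 CPM in CD73 KO and at 1251, 1252 and 1214 CPM in WT, a log2 fold change of -0.23 ± 0.09 without overlap (adjusted p = 0.498). These 2 genes had the highest CPM of the 80. Atp5f1, which encodes subunit b of the peripheral stalk (chromosome 3, 105942698 to 105960099), was at 322, 325 and 359 CPM in CD73 KO and at 370.2, 416 and 373 CPM in WT, without overlap (log2 fold change -0.20 ± 0.10).

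The 3 genes that encode the same mature c subunit of the membrane ring, Atp5g1, Atp5g2 and Atp5g3, lay below 0 with a median of -0.13 and no gene without overlap. Atp5g1 (chromosome 11, 96068852 to 96075670) was at 69.1, 68.7 and 97.1 CPM in CD73 KO and at 95.4, 90.1 and 90.5 CPM in WT, so that CD73 KO replicate 3 was its highest library (log2 fold change -0.24 ± 0.14). Atp5e, the epsilon subunit of the head, Atp5h, subunit d of the stalk, and Atp5mpl, a small proteolipid of the membrane part, each had a log2 fold change of 0.05, with standard errors of 0.14, 0.10 and 0.12. All 3 overlapped between groups. Atp5s stood at 2.66 to 4.84 CPM over the 6 libraries, with a log2 fold change of -0.02 ± 0.30.

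CD73 KO replicate 3 stood apart from replicates 1 and 2 across the subunit genes. Setting each gene at its log2 CPM (plus 0.1) minus its mean over the 6 libraries, the median over the 80 genes was -0.09, -0.17 and 0.09 in CD73 KO and 0.03, 0.08 and 0.08 in WT. Replicates 1 and 2 were below every WT library for 57 and 64 of the 80 genes, and replicate 3 for 22. Over all genes tested the shares were 31.8%, 28.2% and 27.9%. Replicate 3 was above every WT library for 25 subunit genes, against 10 and 2 for replicates 1 and 2. The share of all genes tested above every WT library is not reported here. These 3 counts therefore cannot be set apart from a pattern over all genes. Its difference from the mean of replicates 1 and 2 had a median of 0.20 over the 80 genes and was above 0 for 69, while over all genes tested the median was -0.01 and 48.5% were above 0.

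**Figure D3:**
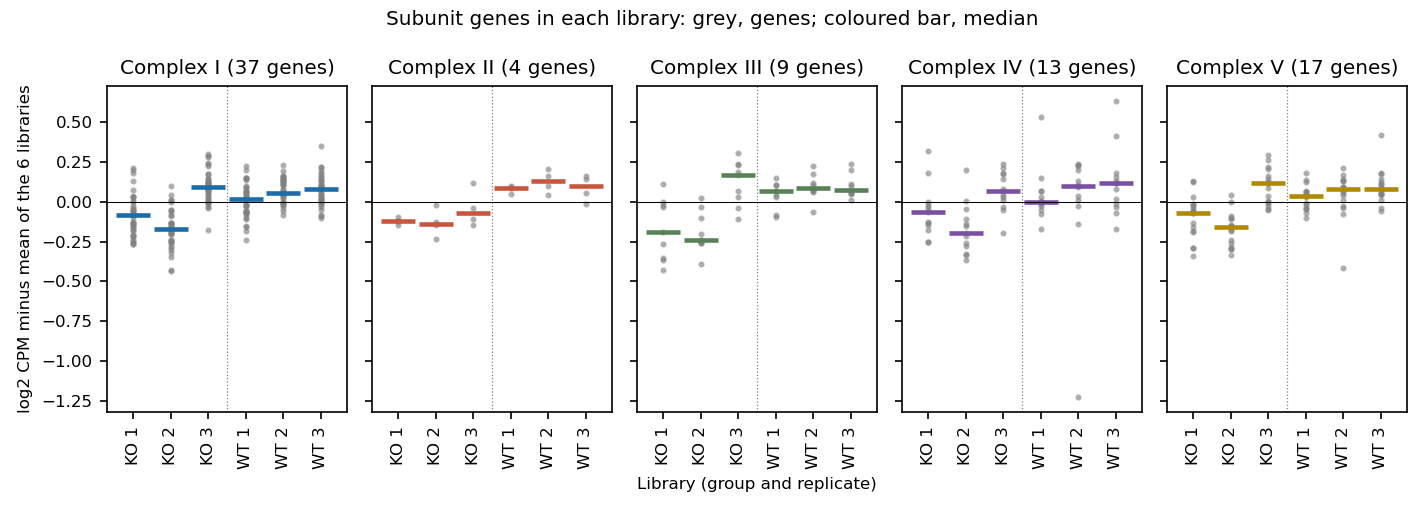
Log2 CPM of each subunit gene (grey points) minus its mean over the 6 libraries, by library and complex; coloured bars are medians over the genes of the complex, and KO stands for CD73 KO. Replicate 3 of CD73 KO lies with WT in complexes I, III, IV and V and with the other CD73 KO libraries in complex II, and the lowest grey point is Cox7a1 in WT replicate 2 (3 counts).

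The results on the complexes are therefore given with and without that library. Without CD73 KO replicate 3, the median log2 fold change of the 80 genes was -0.20, and 70 lay below 0. At an unadjusted p under 0.05, 30 subunit genes were then lower in CD73 KO, against 6.72% of all genes tested in that fit, and none passed the adjusted threshold. The medians were -0.28 in complex III, -0.22 in complex II, -0.21 in complex I, -0.19 in complex V and -0.16 in complex IV, so that complex III and not complex II had the lowest. Complex II moved least, from -0.21 to -0.22.

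Other libraries moved the values less or in the other direction. Without CD73 KO replicate 2, the library lowest in 47 of the 80 genes, the median was -0.06, with 58 genes below 0 and 2 lower at an unadjusted p under 0.05, where 3.93% of all genes tested were. Complexes I, III, IV and V then had medians of -0.05, -0.11, -0.05 and -0.04, while complex II stayed at -0.20. Without WT replicate 1 the median was -0.15, with 67 genes below 0. Leaving out the library labelled WT replicate 2 gave a median of -0.13 with 68 genes below 0, and 0 subunit genes were lower at an unadjusted p under 0.05, where 1.52% of all genes tested were.

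Base composition moved with the difference of CD73 KO replicate 3. Across the 80 subunit genes, its difference from replicates 1 and 2 had a Pearson correlation of 0.47 with the GC content of the transcript. Across 12142 other genes tested the correlation was 0.35. These are correlations across genes of the same 3 libraries, and genes are not independent replicates. The genes with the largest differences were Ndufs7 (0.65, GC 60.7%), Uqcr11 (0.65, GC 58.9%), Uqcrq (0.62, GC 50.2%), Ndufb7 (0.53, GC 59.7%) and Atp5d (0.52, GC 61.1%), named after their values were seen. Subunit transcripts had a median GC content of 51.1% against 50.1% in other genes and a median length of 746 against 2511 bases. With log2 length the difference had a correlation of -0.14 in subunit genes and -0.23 in other genes. CD73 KO replicate 3 also had the lowest depth of its group, at 10202128 counts. Depth was 19382950 and 14867558 counts in CD73 KO replicates 1 and 2. In WT it was 13039990, 9510879 and 6934150 counts. The subunit genes took 1.07%, 1.08% and 1.27% of the counts in CD73 KO and 1.23%, 1.27% and 1.28% in WT. The deepest libraries, CD73 KO replicates 1 and 2, thus had the lowest shares. The part of base composition, length or depth in these values and in the difference between genotypes was not tested.

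**Figure D4:**
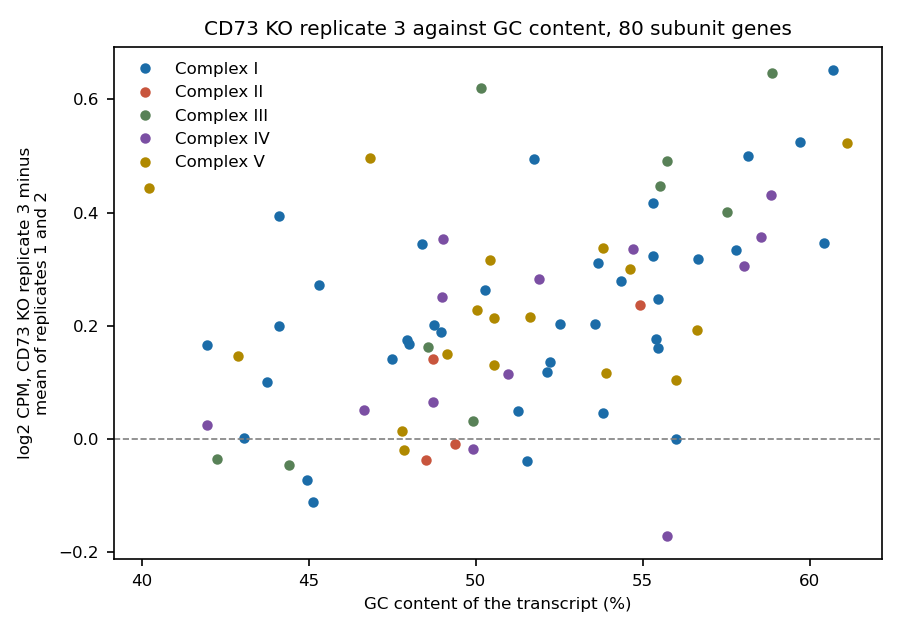
Log2 CPM of CD73 KO replicate 3 minus the mean of replicates 1 and 2 for each of the 80 subunit genes, against the GC content of its transcript in percent, coloured by complex. Most points lie above 0, and the correlation across genes is 0.47.

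The fold change itself had a correlation of -0.18 with GC content and -0.28 with log2 length across the 80 genes, and of -0.06 and 0.05 across other genes. Levels per length in WT, in CPM per kilobase of the median transcript of the gene, ranged most widely in complex V, from 2.40 for Atp5s to 867 for Atp5b, with a median of 265. The median was 230 in complex IV (2.33 for Cox7a1 to 486 for Cox4i1), 149 in complex III (106 for Uqcrfs1 to 410 for Uqcrh), 129 in complex II (48.1 for Sdhc to 169 for Sdhd) and 98.3 in complex I (9.06 for Ndufb2 to 323 for Ndufa4). In CD73 KO these medians were 232, 204, 124, 119 and 87.2 for complexes V, IV, III, II and I, in the same order.

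Nt5e lies on chromosome 9, as do 5 subunit genes: Cox7a2 at 8.57 Mb from it, Uqcrc1 at 20.6 Mb, Cox5a at 30.8 Mb, Sdhd at 37.7 Mb and Atp5l at 43.4 Mb. All 5 had fold changes below 0 (median -0.21). Sdhd, Cox5a and Atp5l lay lower in CD73 KO without overlap, as did 7.6% of all genes tested. Cox7a2 (79755361 to 79759878) was at 129, 116 and 148 CPM in CD73 KO and at 140.1, 162 and 153 CPM in WT, and Uqcrc1 (108936633 to 108949623) at 182, 189.7 and 245 CPM in CD73 KO and at 235, 237 and 230.1 CPM in WT. Atp5l, subunit g of the ATP synthase (44912557 to 44920742), was at 81.7, 72.0 and 77.5 CPM in CD73 KO and at 81.9, 82.3 and 85.1 CPM in WT. The 75 subunit genes on other chromosomes had a median of -0.12, with 64 below 0 and 14 lower without overlap. The 668 other genes tested on chromosome 9 had a median of 0.01, with 326 below 0 and 44 lower without overlap.

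Processed pseudogenes, retrocopies of a transcript elsewhere in the genome, can take reads from the gene they copy. Copies with at least 90% identity over at least 70% of their length were found for 34 of the 80 genes, and for 11 genes they held over 5% as many counts as the gene. The largest share was that of Ndufa12, an accessory subunit of complex I, whose copy Gm15920 matched it at 99.5% identity. Ndufa12 had a log2 fold change of -0.01 alone and of -0.12 with the copy added. With copies added for every gene, the median over the 80 genes was -0.13, 69 lay below 0 and none passed the adjusted threshold. Among the genes described, copies held 42.9% as many counts as Atp5l, 19.7% as Atp5g1, 19.0% as Atp5h, 9.31% as Uqcr11 and 6.62% as Cox7a2l, so their levels are uncertain. Counts given to a copy do not measure how many reads match gene and copy alike, so these shares set no limit on that uncertainty. Exons of 28 genes overlap another gene, and for 9 over 10% of the exonic bases lie opposite another gene, Cox5a, Ndufb5 (12.3%) and Uqcrc2 (19.8%) among them.

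Other mitochondrial genes leaned the same way. All 16 genes of the TCA cycle list, which holds no complex II gene, lay below 0 with a median log2 fold change of -0.21. Of these, 9 lay lower in CD73 KO without overlap, against 7.6% of all genes tested, and 6 were lower at an unadjusted p under 0.05, against 3.89%, but none passed the adjusted threshold. Idh3a, a subunit of isocitrate dehydrogenase, was at 139, 148 and 150.4 CPM in CD73 KO and at 173, 183 and 184 CPM in WT, without overlap (log2 fold change -0.31 ± 0.10, adjusted p = 0.375, edgeR). In this list, as in complex II, CD73 KO replicate 3 lay with its own group: the median deviations were -0.19, -0.08 and -0.08 in CD73 KO and 0.08, 0.15 and 0.09 in WT.

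Of 77 genes of the mitochondrial ribosome, which translates the mitochondrially encoded subunits, 72 lay below 0 (median -0.16), 14 did not overlap (against 7.6% of all genes tested) and 7 were lower at an unadjusted p under 0.05 (against 3.89%). Mrpl45 and Mrps31, a large and a small subunit protein, each had a log2 fold change of -0.34 ± 0.12. Complex I assembly factors had 10 of 15 below 0 (median -0.19), with 6 that did not overlap (against the same 7.6%), and Acad9 at -0.29 ± 0.11 and Ecsit at -0.37 ± 0.15. Assembly factors of complexes II to V had 24 of 35 below 0 (median -0.08), with Atpaf2 at -0.24 ± 0.12 and Cox10 at -0.27 ± 0.14. In that list 1 gene lay lower without overlap (against the same 7.6%) and 0 were lower at an unadjusted p under 0.05 (against 3.89%). Electron carriers, that is cytochrome c and the enzymes of ubiquinone synthesis, had 11 of 14 below 0 (median -0.14), with Cycs at -0.24 ± 0.12 and Pdss1 at -0.34 ± 0.15. The carriers of adenine nucleotides and phosphate were 6 of 6 below 0 (median -0.18), with Slc25a4 at -0.25 ± 0.10 and Vdac1 at -0.21 ± 0.11. Regulators of mitochondrial biogenesis had 11 of 17 below 0 (median -0.10), with Lrpprc, which stabilises mitochondrial messenger RNA, at -0.32 ± 0.11 and Gabpa, the ETS factor named with the promoters, at -0.20 ± 0.11. Lower without overlap were 1 electron carrier gene, 2 of the adenine nucleotide and phosphate carriers and 2 regulators (against 7.6% of all genes tested). Another regulator, 1 of the 17, was higher without overlap (against 7.59%).

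The cytosolic ribosome did not lean that way: 63 of 77 genes lay above 0 (median 0.08), 2 without overlap (against 7.59% of all genes tested), with Rps15a at 0.22 ± 0.12 and Rpl35a at 0.20 ± 0.10. Its median deviations of 0.08, -0.10 and 0.10 in CD73 KO and -0.12, -0.08 and 0.09 in WT did not follow genotype. No gene of these lists passed the adjusted threshold.

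**Figure D5:**
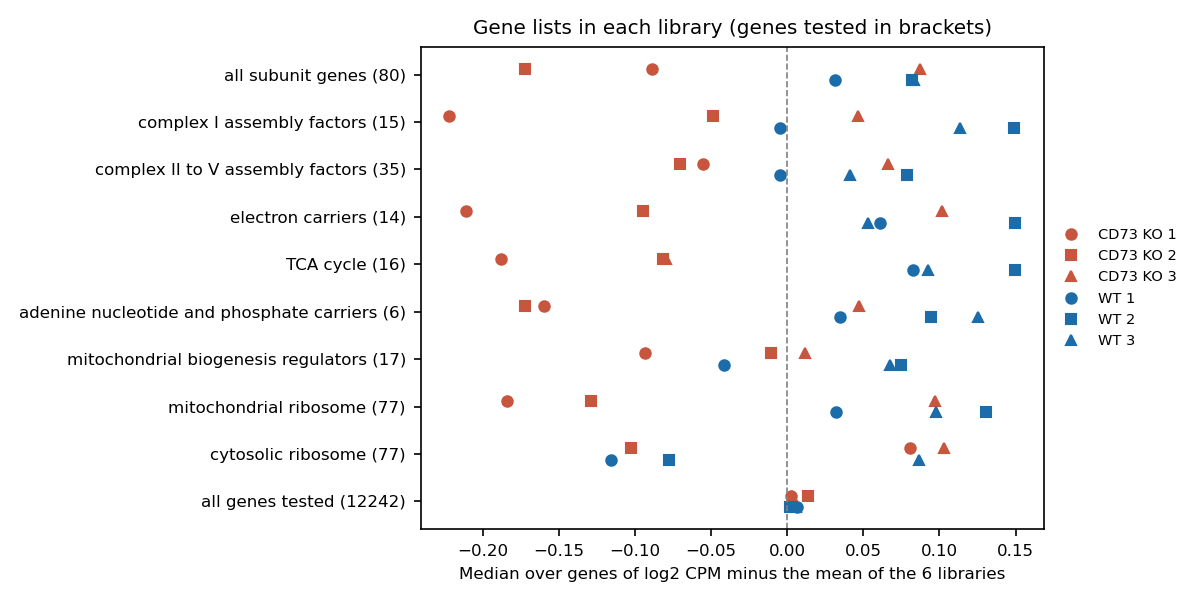
Median over each gene list of log2 CPM minus the mean of the 6 libraries, CD73 KO in red and WT in blue, with a symbol for each replicate and the number of genes tested in brackets. CD73 KO replicate 3 (red triangle) lies with WT for the subunit genes (0.09) and the mitochondrial ribosome (0.10) and with CD73 KO replicate 2 for the TCA cycle (-0.08).

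Markers of other cells that a sort for live cells could leave were read beside these results. The 8 myeloid markers summed to 81.6 to 103 CPM in CD73 KO and 54.9 to 72.0 CPM in WT. Of these, 2 were tested and both had CD73 KO above WT without overlap, as had 7.59% of all genes tested. Ctss had a log2 fold change of 0.61 ± 0.14 and Cd68 of 0.28 ± 0.19, while Lyz2, Csf1r, C1qa and Spi1 had 0 counts in every library. The 7 B cell markers summed to 778 to 867 CPM in CD73 KO and 709 to 783 CPM in WT, nearly all of it Ighm. Of these, 3 were tested and all 3 had fold changes above 0 (median 0.66). Ighd, at 0.80 ± 0.16, did not overlap (against the same 7.59%), and Ms4a1 and Pax5 had 0 counts in every library. The 5 stromal and endothelial markers summed to 67.0 to 105 CPM in CD73 KO and 47.1 to 63.7 CPM in WT, nearly all of it Pecam1 (2 tested, both above 0, median 0.45), with Col1a2 and Cdh5 at 0 counts.

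The 4 CD4 T cell markers summed to 24.3 to 28.3 CPM in CD73 KO and 28.0 to 35.5 CPM in WT (2 tested, median -0.47), and the 5 NK cell markers had a mean sum of 955 ± 65.9 CPM over CD73 KO libraries and of 893 ± 60.9 CPM over WT libraries (SD, n = 3; 4 tested, 2 above and 2 below 0, median -0.16). Of erythroid and platelet markers Itga2b alone was tested (0.86 ± 0.49), with 5 of 6 at 0 counts, and no dendritic cell marker was tested. The 8 CD8 T cell markers had 7 of 8 above 0 (median 0.17), with Cd8a at 0.27 ± 0.14. Higher in CD73 KO without overlap were 3 CD8 T cell markers, 1 NK cell marker and 1 stromal or endothelial marker (against 7.59% of all genes tested). Among CD4 T cell markers, 1 was lower without overlap (against 7.6%). The part of these cells in the subunit values was not tested.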

How the data were processed

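The deposited table holds raw counts, 1 column per library, made by the authors with fastp, HISAT2 and featureCounts on mm10, per the submitters' processing notes. Their versions, the annotation release and the strand setting of the counting are not stated there. Identifiers were matched to a table of gene names (49326 of 49671) and to GENCODE M21 (49412).

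Genes were filtered with filterByExpr (minimum count 10, minimum total count 15), which left 12242, and compared with edgeR 4.0.16 in R 4.3.3 (TMM factors, quasi-likelihood F-test, robust, legacy fit), with Benjamini-Hochberg adjustment over all of them and 0.05 as the threshold. CPM values were scaled with TMM factors to the counts in tested genes. The fit was tested on simulated data. Alternatives used limma 3.58.1, DESeq2 1.42.0, other scalings and filters, the replicate number as a block and each library left out. Deviations of log2 CPM used a pseudocount of 0.1. Copies were matched with blastn 2.17.0 (E-value limit 1e-20).

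Members and lists were chosen with earlier results of these data known, so lists carry no test. Named in each complex were the 4 genes of smallest p, those highest and lowest per length, up to 3 of opposite sign to the median, genes on chromosome 9, tissue-restricted isoforms, Ndufa4 and Cox7a2l, and of other lists any gene called or else the 2 of smallest p. Values of some genes of the other lists are not reported here. Libraries held 6934150 to 19382950 counts.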

Additional observations from a re-analysis of the deposited data

How the results depend on the processing

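No subunit gene was called under any of 15 alternatives to the fit, nor with copies added. The median log2 fold change of the 80 genes ranged from -0.20 (without CD73 KO replicate 3) to -0.06 (without CD73 KO replicate 2), with 58 to 70 genes below 0. The median of complex I ranged from -0.21 (without CD73 KO replicate 3) to -0.052 (without CD73 KO replicate 2) over the fits that left out a library, and complex II had the lowest median in 14 of 15 alternatives. Over all genes, 7 were called, against 99 with DESeq2 and 298 with no filter on low counts, and 4 to 8 with a library left out. Subunit genes lower at an unadjusted p under 0.05 numbered 6, against 3, 2 and 30 without CD73 KO replicates 1, 2 and 3 and 3, 0 and 5 without WT replicates 1, 2 and 3, counts chosen after seeing the data, as were the sums with copies. Over all genes tested the share was 3.89%, and 3.93%, 6.72% and 1.52% without CD73 KO replicate 2, CD73 KO replicate 3 and WT replicate 2. For the other fits, the block fit below included, that share is not reported here. Their counts cannot be set apart from a change over all genes.

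The labels number the libraries of both groups alike and do not say whether libraries of equal number belong together. Correlations of deviations from the group means were 0.15, -0.17 and 0.01 between libraries of the same number. Between libraries of different number they ran from -0.32 to 0.36. With means of 3 libraries in each group, such correlations depend on each other and cannot show whether the libraries were paired. With the replicate number as a block the median of the 80 genes was -0.13, none was called, 8 were lower at an unadjusted p under 0.05, and 5 genes were called in all.

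Of 35 named subunit genes, 6 changed sign, all of them near 0 or of low counts. Over the fits that left out a library, Atp5e ran from -0.055 (CD73 KO replicate 3 left out; -0.010 with CD73 KO replicate 1 left out) to 0.19, Atp5h from -0.029 (CD73 KO replicate 3) to 0.099, and Atp5mpl from -0.0040 (CD73 KO replicate 1) to 0.15. Atp5s ran from -0.21 to 0.20 (WT replicate 3), with 0.14 when CD73 KO replicate 1 was left out, and Cox6b2 from -0.33 to 0.014 (WT replicate 3). Cox7a1, at 3 to 19 counts per library, ran from -0.59 to 0.14 (WT replicate 1), with 0.018 and 0.059 when CD73 KO replicate 2 and WT replicate 3 were left out, and was 0.011 in limma-voom. The cause was not tested. Cox7a1, Cox6b2 and Atp5s had the fewest counts of the 80 genes.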

Other observations

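The share of reads that went to a retrocopy differed between libraries of 1 group for 2 subunit genes, which were named after their values were seen. Of the counts of Ndufa12 and its copy Gm15920 together, the copy held 19.4% in CD73 KO replicate 1 (exact 95% binomial interval 17.2% to 21.8%, counting error only) and 42.4% and 40.9% in replicates 2 and 3. In WT it held 42.8%, 38.4% and 37.5%. Of the counts of Cox7a2l and its copy Gm6969, the copy held 3.05% in CD73 KO replicate 1 and 2.87% in WT replicate 1, and 9.44% and 8.12% in CD73 KO replicates 2 and 3 and 10.6% and 7.58% in WT replicates 2 and 3. Ndufa12 itself was highest in CD73 KO replicate 1, at 52.1 CPM against 40.8 to 51.4 CPM in the other 5 libraries, while the sum with its copy was lowest there, at 64.6 CPM against 70.8 to 83.5 CPM. Cox7a2l was highest in the same library, at 263 CPM.

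Of the 5 subunit genes with the largest difference between CD73 KO replicate 3 and replicates 1 and 2, Atp5d, Ndufs7 and Uqcr11 lie within 0.268 Mb of each other on chromosome 10. Ndufs7 was at 39.5, 35.0 and 58.4 CPM in CD73 KO and at 45.4, 50.9 and 60.5 CPM in WT, and Atp5d at 172, 156 and 235 CPM in CD73 KO and at 205, 209 and 212 CPM in WT.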
